A study of Mus musculus with 9 samples.

Results

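The genes described here were 10 members of the polypeptide GalNAc transferase family: Galnt1, Galnt2, Galnt3, Galnt4, Galnt6, Galnt7, Galnt9, Galnt10, Galnt11 and Galnt12. They were the genes on a fixed list, and a probe set was taken as a member when the RefSeq accession in its identifier belonged to a listed gene. All 10 were found, each with 1 probe set, among 909 named genes on the array. The values came from 9 Affymetrix arrays of a custom glycogene design (GLYCOv4), each hybridised with RNA of purified CD8 T cells from female mice of the B10D2 strain that carried a transgenic T cell receptor. The 3 groups held 3 arrays each. Naive cells were the control. Cells of the deletion group had received a weak antigen signal in the animal, and cells of the anergy group a strong one. The transgenic receptor, the strain and the sex were shared by all 3 groups. The labels give no dose, time, age or route of antigen, do not name the transgene, and do not say whether replicates of a group came from separate animals, and p-values therefore reflect the spread among these arrays alone, part or all of which may be technical.

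Polypeptide GalNAc transferases are Golgi enzymes that transfer N-acetylgalactosamine from UDP-GalNAc to serine or threonine, the step that starts mucin-type O-glycans. Some isoforms act on bare peptide, while others prefer peptide that already carries GalNAc and fill in neighbouring sites. On T cells these glycans decorate surface glycoproteins such as CD43, CD45, CD8 and the selectin ligand PSGL-1, and their later extension and sialylation differ between naive and activated cells.

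Values are log2 expression as the authors deposited them, so a difference of 1 is a 2-fold change. A difference was called when its adjusted p (limma, Benjamini-Hochberg over all 1246 probe sets) was under 0.05, and differences between groups were taken for 1 probe set at a time. Levels of different genes were set side by side only to mark dim or bright probe sets, and were summed only for the marker lists. The third array of the anergy group deviated most from its group (SD of residuals 0.166 log2 units, beside 0.094 to 0.128 on the other 8 arrays). Its median over all probe sets was the highest, 4.58 beside 4.44 to 4.50 on the other 8 arrays. It was the lowest of the 3 anergy arrays for 9 of the 10 transferases, all but Galnt9. The share of all probe sets lowest on it was not counted, so this is no result about the family. Falls in anergy of the called transferases are given with and without this array, whereas differences of gene lists outside the family are given with it only. Of 7 defining markers of CD8 T cells in a preset list, Cd2 was the single gene measured, so the labelled cell type could not be checked further. Cd2, an adhesion receptor of T cells, had means of 11.58 in naive, 10.01 in deletion and 9.40 in anergy cells. Among marker lists of other cells, measured members were 3 of 7 for B cells (summed linear level 603 to 674 in naive, 398 to 568 in deletion and 369 to 426 in anergy arrays), 4 of 9 for macrophages and dendritic cells (173 to 177, 127 to 156 and 132 to 134), 2 of 4 for natural killer cells (18.4 to 23.7, 92.6 to 151 and 387 to 426), 1 of 3 for CD4 T cells (11.2 to 12.0, 10.5 to 13.8 and 23.7 to 28.6) and 2 of 5 for erythroid cells and granulocytes (13.9 to 14.8, 15.0 to 16.4 and 15.5 to 16.7). Markers that differed from naive cells were Klrc1 (log2 difference 3.01 in deletion and 4.88 in anergy), Klrk1 (0.79 in anergy) and Il2ra (1.16 in anergy), which activated CD8 T cells also express, together with Cd22 (1.17 and 0.98), Cd72 (-1.56 and -1.64), Cxcr5 (0.64 in deletion), Ly75 (-0.60 and -0.65) and Siglecf (0.33 and 0.39). Klrc1 and Il2ra were also lower in deletion than in anergy (-1.87 and -1.05), and Cd2 was higher (0.61, a call that held in 7 of 17 other settings). The part of these markers in the results below was not tested.

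In both tolerized groups 5 of the 10 transferases fell relative to naive cells, none rose, and 5 did not pass. The genes that fell were Galnt10, Galnt6, Galnt11, Galnt2 and Galnt12, with differences of -0.33 to -2.84 on the log2 scale in deletion cells and -0.40 to -3.85 in anergy cells. The array measured 19 genes of the family, and the 9 outside the list had 0 calls in either comparison. The list was chosen with earlier results of these data known, so 5 of 10 is not a share of the whole family. Over all probe sets 19.0% were called in deletion against naive (10.5% lower and 8.51% higher in deletion), and 26.8% in anergy against naive (16.1% lower and 10.8% higher in anergy). These shares include dim probe sets, and are a low reference for the transferases, 9 of which were among the 832 brightest probe sets. With only those 832 kept, 5 of the 9 fell in each comparison. Of the 832, 232 were called in deletion (128 lower and 104 higher) and 315 in anergy (198 lower and 117 higher). The median difference of the 10 was -0.22 in deletion and -0.28 in anergy, beside -0.02 and 0.01 over all probe sets, dim ones included. Both comparisons use the same naive arrays, so their likeness is no independent evidence. These are bulk samples, in which fewer cells with a transcript and less of it per cell cannot be told apart. In deletion against anergy 1 of the 10 differed, Galnt10, which was higher in deletion cells, where 3.37% of all probe sets were called (2.09% higher and 1.28% lower in deletion). With only the 832 brightest kept, 44 were called there (31 higher and 13 lower in deletion).

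**Figure D1:**
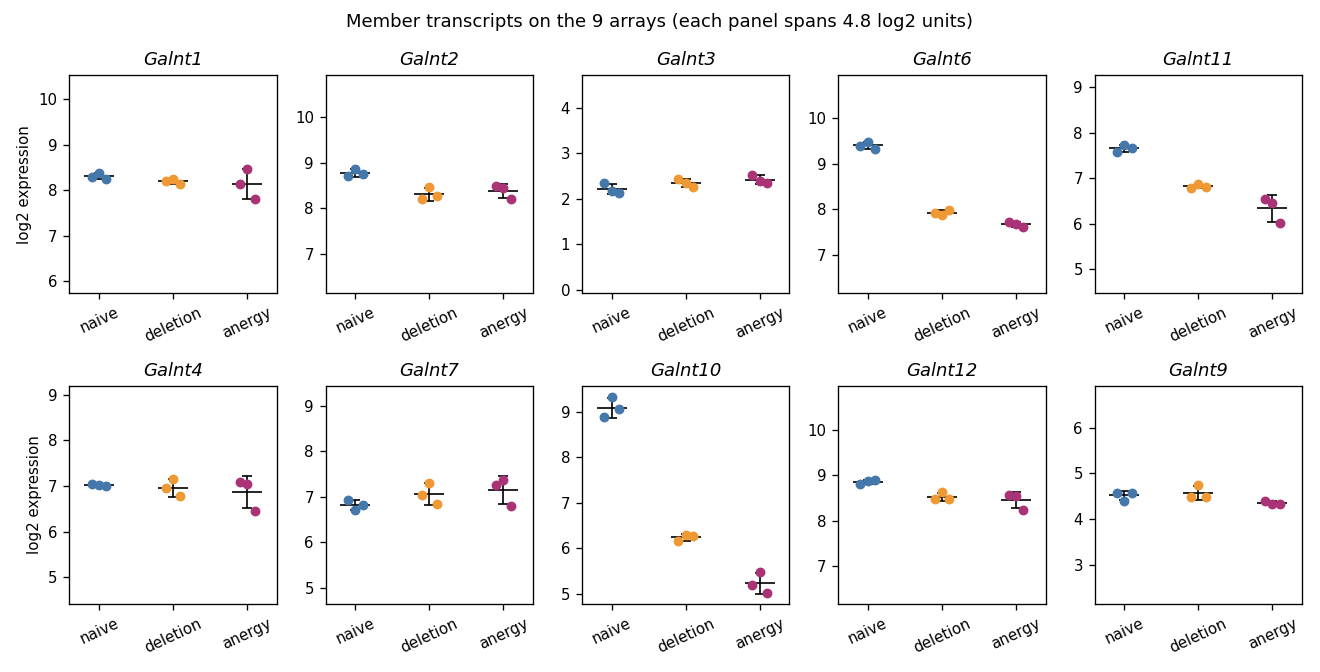
Log2 expression (y axis) of each of the 10 transferases on the 3 naive, 3 deletion and 3 anergy arrays (x axis), with points for arrays and black bars for the mean and SD (n = 3). Every panel has the same span on the y axis. Galnt10 goes from a mean of 9.08 in naive cells to 6.24 in deletion and 5.23 in anergy cells, Galnt6 and Galnt11 step down less far, and the lowest anergy point is replicate 3 in 9 of the 10 panels.

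Galnt10, an isoform that prefers peptide already carrying GalNAc, showed the largest change of the family. Its log2 values were 8.87, 9.32 and 9.05 on the naive arrays, 6.15, 6.29 and 6.27 on the deletion arrays, and 5.20, 5.48 and 5.02 on the anergy arrays, here and below in the order of replicate number. All naive arrays lay above all deletion arrays, and these lay above all anergy arrays. The level fell 7.18-fold from naive to deletion cells (95% limits 5.83 to 8.83; limma adjusted p = 1.9e-07) and 14.4-fold from naive to anergy cells (11.7 to 17.7; adjusted p = 2.3e-08). Without anergy replicate 3 the fall in anergy was 3.74 ± 0.13 on the log2 scale (SE), against 3.85 ± 0.13 with it. Among the 1246 probe sets it ranked 8 from the largest fall in deletion and 6 in anergy. The difference between the tolerized groups was 1.00 ± 0.13 on the log2 scale, higher in deletion (adjusted p = 0.0027), and it was called in all 17 other settings that were run, with adjusted p from 0.0015 to 0.019. Without anergy replicate 3 it was 0.90 ± 0.14 (adjusted p = 0.012).

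Galnt6, a peptide-directed isoform closely related to Galnt3, had log2 values of 9.39, 9.49 and 9.33 (naive), 7.93, 7.87 and 7.99 (deletion) and 7.73, 7.68 and 7.62 (anergy). Here too the 3 groups did not overlap, and the replicates of each lay close together. Galnt6 fell 2.78-fold in deletion (2.51 to 3.08; limma adjusted p = 1.3e-07) and 3.31-fold in anergy (2.99 to 3.67; adjusted p = 3.5e-08). The step between the tolerized groups was 0.25 ± 0.07 (SE), higher in deletion, and did not pass (adjusted p = 0.070). It passed in 1 of 17 other settings, array weights, at 0.24 (adjusted p = 0.040). Leaving out anergy replicate 3 gave 0.225 ± 0.064 for this step (limma adjusted p = 0.13). The difference of anergy from naive cells was then -1.70 instead of -1.73 on the log2 scale.

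Galnt11, which glycosylates receptors such as those of the LDL receptor family and Notch1, had log2 values of 7.58, 7.74 and 7.66 (naive), 6.80, 6.87 and 6.81 (deletion) and 6.55, 6.46 and 6.01 (anergy). The 3 groups again did not overlap, with anergy replicate 3 the lowest of all arrays. The fall was 1.78-fold in deletion (1.47 to 2.16; limma adjusted p = 0.00082) and 2.50-fold in anergy (2.06 to 3.02; adjusted p = 2.3e-05), and without anergy replicate 3 the difference in anergy was -1.16 instead of -1.32 on the log2 scale. Between the tolerized groups Galnt11 was 0.49 ± 0.12 higher in deletion (SE), which did not pass (adjusted p = 0.064). Leaving out anergy replicate 3 made that difference smaller and its error narrower, 0.32 ± 0.06, and it then passed (adjusted p = 0.043). It passed as well without anergy replicate 1 (0.59, adjusted p = 0.035) and with array weights (0.36, adjusted p = 0.026). Galnt10, Galnt6 and Galnt11 were the 3 of the 10 whose 9 arrays stood in the order naive over deletion over anergy with no overlap, an order shown by 5.06% of all probe sets. Galntl5, a family gene next to Galnt11 on chromosome 5, was at 2.65, 2.63 and 2.66 in naive, deletion and anergy cells, near the lowest values of the arrays.

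Promoter sequence was available here from RefSeq (GRCm38.p6) for 6 of the 10 genes, and it is shown for the 3 with the largest falls. Likeness among the profiles of these 3 was not measured. Each line gives the 250 bases before the first listed start, 5′ to 3′ on the strand of the gene. Capitals mark the letters GGGCGG or their reverse complement, the GC box of Sp-family factors, and TGACGTCA, the cAMP response element, which reads the same on both strands.
Galnt10, chr11:57645192-57645441, plus strand: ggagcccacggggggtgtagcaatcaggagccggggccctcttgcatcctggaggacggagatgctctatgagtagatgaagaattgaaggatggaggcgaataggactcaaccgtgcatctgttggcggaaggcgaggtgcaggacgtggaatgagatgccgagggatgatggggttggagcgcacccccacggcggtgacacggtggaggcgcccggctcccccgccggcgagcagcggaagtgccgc
Galnt6, chr15:100729377-100729626, minus strand: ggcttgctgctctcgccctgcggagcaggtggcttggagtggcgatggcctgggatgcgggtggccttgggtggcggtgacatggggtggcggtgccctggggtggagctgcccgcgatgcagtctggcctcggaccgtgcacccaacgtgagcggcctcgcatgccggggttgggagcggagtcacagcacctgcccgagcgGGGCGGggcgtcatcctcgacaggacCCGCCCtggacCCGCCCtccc
Galnt11, chr5:25222622-25222871, plus strand: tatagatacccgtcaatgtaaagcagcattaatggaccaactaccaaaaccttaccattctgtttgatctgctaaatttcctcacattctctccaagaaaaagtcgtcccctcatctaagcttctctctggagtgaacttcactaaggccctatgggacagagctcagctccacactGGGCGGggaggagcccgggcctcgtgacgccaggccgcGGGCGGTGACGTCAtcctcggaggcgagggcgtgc
The Galnt10 window held 20 CpG dinucleotides, the Galnt6 window 22 and the Galnt11 window 13, beside a median of 6 over 32851 windows of the same length. Second windows of Galnt6 and Galnt11, not shown, held 10 and 4. Counts above the median were not limited to genes that fell. The windows of Galnt3 and Galnt7, which did not pass, held 34 and 19, and those of Galnt9 held 2 and 32. GGGCGG was found 3 times before Galnt6 and 2 times before Galnt11, and none of the 6 motifs searched was found before Galnt10. Of the 6 genes with a window 5 held GGGCGG in at least 1 of their windows, and these included Galnt3, Galnt7 and Galnt9, none of which was called lower in any comparison. It occurs in 32.7% of all windows. TGACGTCA, in 1.55% of all windows, directly followed the second GGGCGG before Galnt11. The other letters searched on both strands were CCGGAA (12.0% of all windows; found before Galnt7), GTAAACA (3.17%; in no window of the 6 genes), TGANTCA (6.75%; in none) and GGAAAA (20.4%; in the second windows of Galnt6 and Galnt11 and the first of Galnt9). A match of letters is a description and not a binding site.

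Galnt2, a widely expressed peptide-directed isoform known for substrates of lipid metabolism, fell by less. Its log2 values were 8.72, 8.87 and 8.75 (naive), 8.20, 8.47 and 8.27 (deletion) and 8.49, 8.44 and 8.21 (anergy). Every tolerized array lay below every naive array, while deletion and anergy overlapped. The fall was 1.38-fold in deletion (1.19 to 1.60; limma adjusted p = 0.0061) and 1.32-fold in anergy (1.14 to 1.53; adjusted p = 0.010), and both were called in all 16 other settings, with the difference in anergy at -0.24 after quantile normalization instead of -0.40. Without anergy replicate 3 the fall in anergy was 0.32 ± 0.09 (SE, log2; limma adjusted p = 0.030).

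Galnt12, an isoform with activity on glycopeptides, had log2 values of 8.81, 8.86 and 8.89 (naive), 8.48, 8.63 and 8.47 (deletion) and 8.56, 8.55 and 8.24 (anergy). As for Galnt2, the naive arrays lay above all others and the tolerized groups overlapped. Its fall of 1.25-fold in deletion (1.09 to 1.45; limma adjusted p = 0.032) was the weakest of the calls: it held in 9 of 16 other settings and was lost after median centring (adjusted p = 0.084), with an intensity trend in the fit (0.054) and without any of naive replicates 1, 2 or 3 or deletion replicates 1 or 3 (0.067 to 0.11). The fall of 1.32-fold in anergy (1.15 to 1.53; adjusted p = 0.0079) held in all 16, at -0.23 instead of -0.40 on the log2 scale after quantile normalization, and without anergy replicate 3 it was 0.30 ± 0.06 (SE, log2; limma adjusted p = 0.0082). The probe set of Galnt12 has the suffix s and can bind more than 1 transcript.

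**Figure D2:**
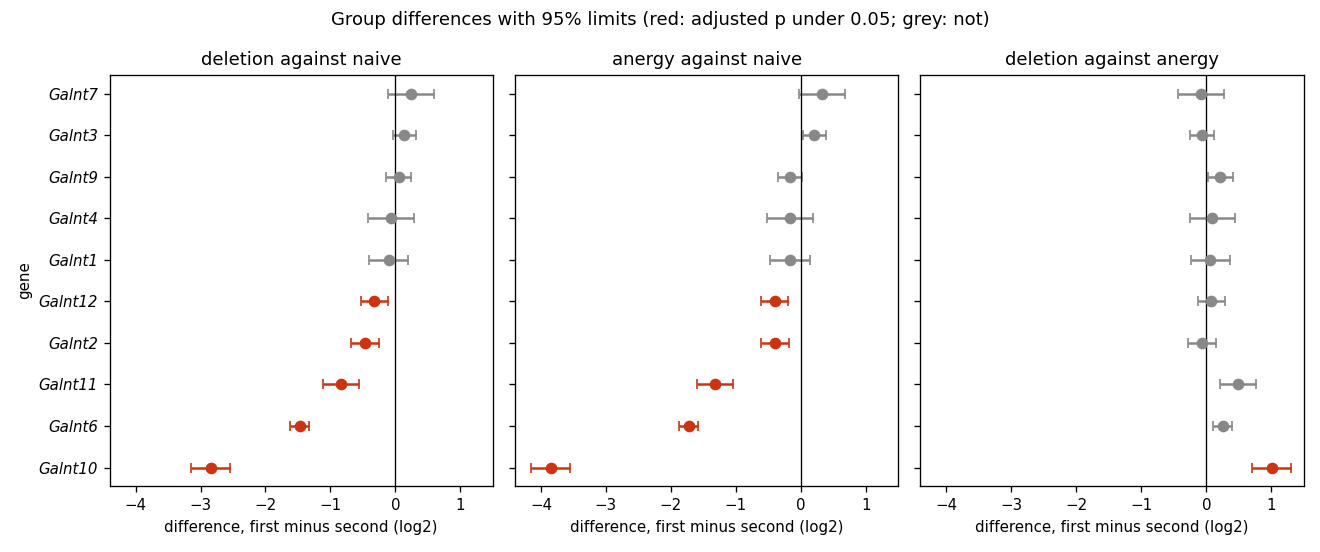
Difference in log2 expression between groups (x axis, first minus second group named above each panel) for the 10 transferases (y axis), with 95% limits from limma on 9 arrays. The 5 red points left of zero in each comparison with naive cells are Galnt10, Galnt6, Galnt11, Galnt2 and Galnt12, and Galnt10 is the single red point in deletion against anergy.

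The other 5 transferases did not pass in any of the 3 comparisons. Galnt1, the broadly expressed isoform whose loss in mice disturbs lymphocyte homing and blood clotting, had log2 values of 8.30, 8.37 and 8.24 in naive, 8.21, 8.24 and 8.14 in deletion, and 8.14, 8.46 and 7.81 in anergy replicates. The difference from naive cells was -0.11 in deletion (95% limits -0.41 to 0.19) and -0.17 in anergy (-0.47 to 0.13), and without anergy replicate 3 the latter was 0.00 ± 0.09 (SE). The limits leave room for changes of about the size seen for Galnt2. With anergy replicate 2 left out instead, the difference was -0.33 and passed (limma adjusted p = 0.045), since the 2 remaining anergy arrays held the lower values.

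Galnt4, which acts on glycopeptides and on PSGL-1, had 7.05, 7.03 and 7.00 in naive, 6.95, 7.15 and 6.77 in deletion, and 7.08, 7.05 and 6.46 in anergy replicates. The groups overlapped, and the differences from naive cells were -0.07 (-0.42 to 0.28) in deletion and -0.16 (-0.51 to 0.19) in anergy. The latter was 0.04 without anergy replicate 3.

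Galnt7, like Galnt10 an isoform that prefers peptide already carrying GalNAc, had 6.93, 6.71 and 6.82 in naive, 7.03, 7.31 and 6.84 in deletion, and 7.26, 7.37 and 6.79 in anergy replicates. Its differences from naive cells were positive, 0.24 (-0.11 to 0.59) in deletion and 0.32 (-0.03 to 0.67) in anergy, and replicate 3 of both tolerized groups lay within the range of the naive arrays. The difference in anergy passed without anergy replicate 3 (0.50, limma adjusted p = 0.024), after quantile normalization (0.43, adjusted p = 0.030) and with array weights (0.47, adjusted p = 0.016). The direction of this difference was thus opposite to that of Galnt10 in every setting, whereas the call depended on the setting.

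Galnt3, the isoform that protects the hormone FGF23 from cleavage, lay near the lowest values of the arrays, with 2.34, 2.18 and 2.12 in naive, 2.43, 2.35 and 2.27 in deletion, and 2.53, 2.39 and 2.34 in anergy replicates. Only 6.50% of probe sets were dimmer on average. Its differences from naive cells were 0.14 (-0.04 to 0.32) and 0.21 (0.02 to 0.39). The latter did not pass (limma adjusted p = 0.098), but did so when naive replicate 1 was left out (0.045) and when replicate number was a block (adjusted p = 0.025). Galnt9, known from brain, had 4.58, 4.40 and 4.58 in naive, 4.48, 4.74 and 4.49 in deletion, and 4.40, 4.32 and 4.34 in anergy replicates. Its deletion arrays lay above all its anergy arrays, by 0.22 on average, and the difference did not pass (adjusted p = 0.24). Groups without overlap were common on these arrays: in deletion against anergy they were 4 of the 10 transferases and 16.6% of all probe sets, in deletion against naive 5 of 10 and 31.5%, and in anergy against naive 5 of 10 and 33.9%.

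By known substrate preference, the genes that fell and those that did not were spread over both kinds of isoform. Of the peptide-directed isoforms Galnt1, Galnt2, Galnt3, Galnt6 and Galnt11, those that fell were Galnt2, Galnt6 and Galnt11. Of the isoforms with glycopeptide activity, Galnt10 and Galnt12 fell while Galnt4 and Galnt7 did not pass. Galnt9, which did not pass either, was placed in neither kind. The limits of Galnt6 and its relative Galnt3 lay apart in deletion. The difference of Galnt6 was -1.47 with 95% limits of -1.62 to -1.33, whereas the limits of Galnt3 were -0.04 to 0.32. Galnt3, however, lies near the lowest values of the arrays, where a fall is understated. For Galnt10 (-3.14 to -2.54) and Galnt7 (-0.11 to 0.59), both well above those values, the limits were likewise apart. For Galnt12 and Galnt4 they overlapped, in deletion (-0.53 to -0.12 and -0.42 to 0.28) and in anergy (-0.61 to -0.20 and -0.51 to 0.19).

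The array held 9 further genes of the family, Galnt5, Galnt13, Galnt14, Galnt15, Galnt16, Galnt17, Galnt18, Galntl5 and Galntl6, and none of them passed in any comparison. Their differences lay between -0.11 and 0.09 in deletion against naive and between -0.14 and 0.30 in anergy against naive. Galnt13, Galntl6, Galntl5, Galnt5 and Galnt14 were among the dimmest probe sets, with naive means of 2.26, 2.33, 2.65, 3.17 and 3.28, and a fall in them would hardly show. The naive means of Galnt18, Galnt15, Galnt16 and Galnt17 were 4.57, 5.19, 5.45 and 5.62. The largest, 0.30 ± 0.12 (SE) for Galnt16 in anergy, was 0.14 without anergy replicate 3, which was at 6.06 beside 5.62 and 5.56 in replicates 1 and 2. It did not pass (limma adjusted p = 0.11), nor in any other setting run except without anergy replicate 2 (adjusted p = 0.049). Galnt17 was likewise highest in replicate 3, at 6.19 beside 5.74 and 5.64.

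**Figure D3:**
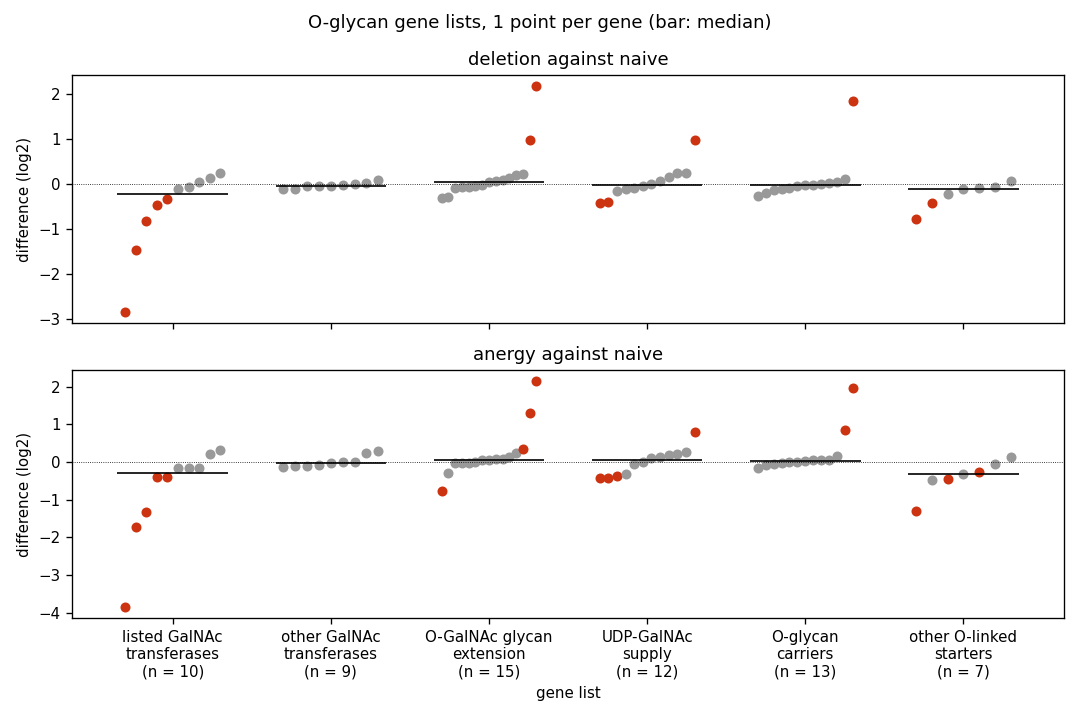
Difference from naive cells in log2 expression (y axis) for each measured gene of 6 gene lists (x axis), in deletion (top) and anergy cells (bottom). Each point is a gene, red where the adjusted p was under 0.05, and the bars are medians. The listed transferases reach furthest below zero (Galnt10, -2.84 and -3.85), and the highest point of the extension list is Gcnt1 (2.17 and 2.15).

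A preset list for extension and capping of O-GalNAc glycans had 15 measured genes, whose action on other glycans was not considered. Of these, 2 rose and 0 fell from naive to deletion cells, and 3 rose and 1 fell from naive to anergy cells. In deletion against anergy 0 were called. The shares called in either direction, 2 of 15 and 4 of 15 against naive cells, stand beside 19.0% and 26.8% of all probe sets and are not above them. In deletion the median of this list was 0.04, beside -0.22 for the 10 transferases. The 2 lists differ in brightness, so these medians are not a like comparison. Gcnt3, B3gnt6, St6galnac1, St6galnac2 and St6galnac5 were dim, with naive means of 2.60, 3.48, 2.98, 3.28 and 2.47. Gcnt1, which makes the branched core structure on which selectin ligands are built, rose by 2.17 ± 0.15 and 2.15 ± 0.15 (SE) in deletion and anergy in its brighter probe set. The naive mean of this probe set was 2.68, near the lowest values of the arrays, where the size of a change is understated. A second, dimmer probe set of Gcnt1 gave 0.19 and 0.26. B4galt5, a galactosyltransferase, rose by 0.96 ± 0.09 and 1.30 ± 0.09. St3gal1, which sialylates the unbranched core and so caps it, fell in anergy by 0.77 ± 0.11 (limma adjusted p = 0.00061), while its difference of -0.28 in deletion did not pass (adjusted p = 0.14). St6galnac6 rose in anergy by 0.34 ± 0.09. C1galt1, which adds galactose to the GalNAc placed by the transferases, differed by 0.21 and 0.14, and C1galt1c1, the chaperone it needs, by -0.31 and -0.30, none of which passed (adjusted p from 0.12 to 0.39). St6galnac4 differed by -0.04 and -0.03 and did not pass.

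Of 12 measured genes that supply or recycle UDP-GalNAc, deletion against naive cells gave 1 rise and 2 falls, and anergy against naive cells gave 1 rise and 3 falls. These 3 of 12 and 4 of 12 lie near the 19.0% and 26.8% of all probe sets that were called. Uap1l1, related to the enzyme that makes UDP-GalNAc, rose by 0.97 ± 0.12 and 0.80 ± 0.12 (SE), while Uap1 fell in deletion by 0.43 ± 0.11, a call that held in 11 of 16 other settings. Gnpnat1, of the pathway to UDP-GlcNAc, fell by 0.40 and 0.38, calls that held in 7 of 16 other settings each. Slc35d2, a transporter of nucleotide sugars, fell in anergy by 0.43 ± 0.12, which also held in 11 of 16. Of 21 listed carriers of mucin-type O-glycans in leukocytes and vessels 13 were measured, and the genes of CD43, CD45 and CD8 were not among them. Of the 13, 1 was called in deletion against naive and 2 in anergy against naive. These are smaller shares than the 19.0% and 26.8% of all probe sets. Some of the 13 were dim, such as Glycam1, Emcn and Havcr1 (naive means 2.62, 3.30 and 3.46), where a change is understated. The shares therefore say little about carriers on T cells. In deletion against anergy 1 of the 13 was called, beside 3.37% of all probe sets. Cd44 rose in both tolerized groups, by 1.85 ± 0.17 and 1.97 ± 0.17, Havcr2 (Tim-3) rose in anergy by 0.86 ± 0.12 and was lower in deletion than in anergy by 0.76 ± 0.12, and Selplg, which encodes PSGL-1, differed by 0.02 and 0.06 and did not pass.

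Among 7 measured enzymes that start other kinds of O-linked glycan, 2 were lower in deletion than in naive cells, 3 were lower in anergy than in naive cells and 0 were higher in either, where 10.5% and 16.1% of all probe sets were called lower. With only the 832 brightest probe sets kept, 128 and 198 of them were called lower, which are larger shares. Xylt2, which starts glycosaminoglycan chains, fell by 0.78 ± 0.10 in deletion and fell by 1.29 ± 0.10 in anergy (SE), and Pofut2, which adds O-fucose, by 0.42 ± 0.08 and 0.45 ± 0.08. Pomt2, of O-mannose, fell in anergy by 0.27 ± 0.09, a call that held in 7 of 16 other settings. Xylt2 was also higher in deletion than in anergy, by 0.51 ± 0.10 (limma adjusted p = 0.026), a call that held in 9 of 17 other settings.

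Profiles over the 9 arrays were compared after each was centred on its own mean, and likeness was taken as the smallest root mean square difference among 890 named genes outside the family. The genes nearest to Galnt10 were Igfbp4 (0.42 on the log2 scale), which binds insulin-like growth factors, Tgfbr3 (0.52), a co-receptor of TGF-beta, and Il7r (0.63), the interleukin-7 receptor. None of the 3 had the step of Galnt10 between the tolerized groups: their differences of deletion minus anergy were 0.17, -0.16 and 0.14, beside 1.00. Galnt6 was nearest to Hs6st1 (0.12), Pkd1 (0.13) and Chst10 (0.15), and Galnt11 to Xylt2 (0.090), Tgfbr2 (0.10) and Il27ra (0.12). For Galnt2 they were Pofut2 (0.053), G3bp2 (0.087) and Ankrd17 (0.090), and for Galnt12 B4galt3 (0.047), Pofut2 (0.065) and Alg5 (0.079). These are descriptions over arrays that share their 3 groups.

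**Figure D4:**
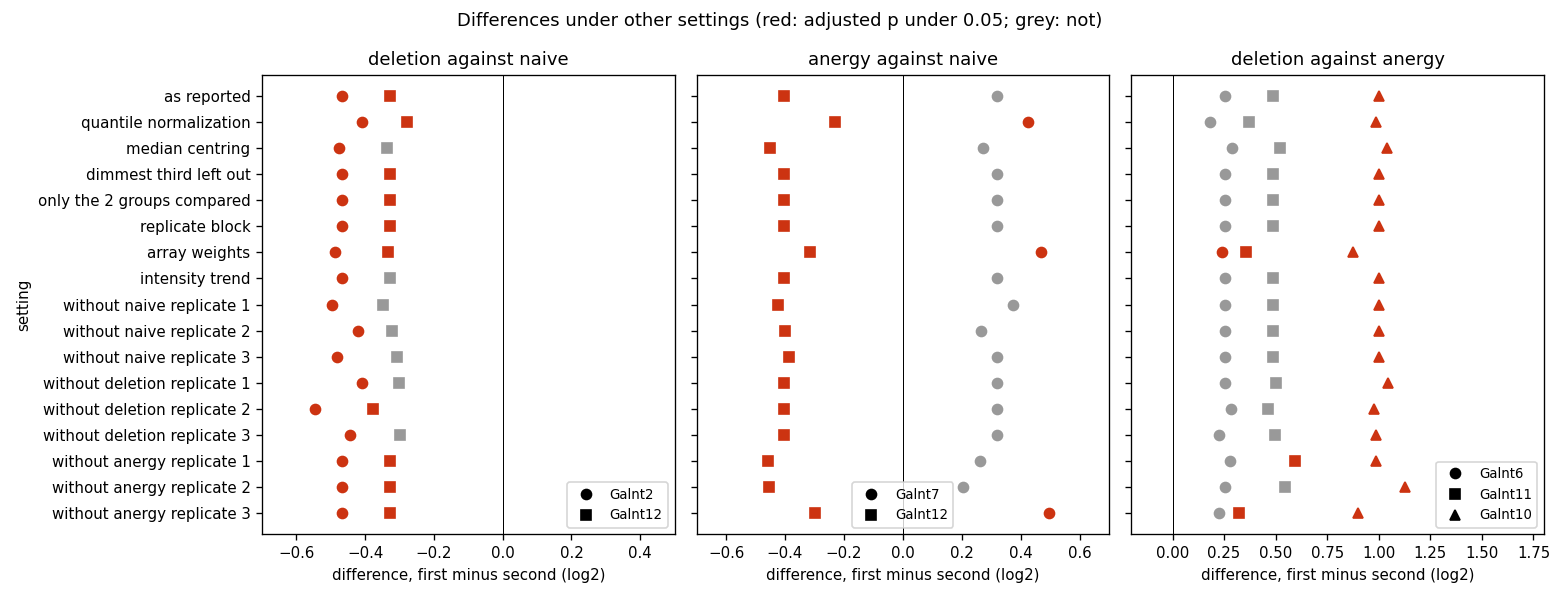
Differences in log2 expression (x axis) of 6 selected transferases under each setting (y axis), with red for adjusted p under 0.05 and grey for the rest. Galnt2 passes in every setting of deletion against naive and Galnt10 in every setting of deletion against anergy, whereas Galnt12 in deletion, Galnt7 in anergy, and Galnt6 and Galnt11 between the tolerized groups pass in some settings only.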

How the data were processed

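RNA of 9 samples was measured on single-colour arrays, from total RNA extracted with Trizol and made into biotinylated cRNA, per the labels' protocols. The authors deposited log2 expression values, 1 for each probe set on each array. RMA is the method in the submitters' processing notes, with its version, array annotation and filters not given in the sources used here. That the scale is log2 follows from the method, and the values ran from 1.67 to 13.86. No detection calls were used, and changes of probe sets near the lowest values are understated. Precision is limited by the number of arrays. The median SE of a difference was 0.087.

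The table held 1246 probe sets. Of these 963 were named, as 909 genes, by matching unversioned RefSeq accessions to a RefSeq table (GRCm38.p6). For a gene outside the family with more than 1 probe set, the brightest on average was used. The 3 comparisons were fitted to the deposited values with limma 3.58.1 in R 4.3.3 (lmFit, eBayes) over all 9 arrays with no block, two-sided, with Benjamini-Hochberg adjustment over all probe sets and a threshold of 0.05. The fit had 6 residual and 3.65 prior degrees of freedom and was tested on simulated data. To check whether replicate numbers pair the arrays, deviations from group means were correlated between arrays of equal number. Deletion and anergy arrays gave r = 0.20, 0.27 and 0.28, and naive arrays gave r from -0.15 to 0.27 with the other groups. The labels state no pairing. Arrays of unequal number were not correlated, so these values cannot decide whether the numbers pair the arrays.

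The members and gene lists were chosen with earlier results of these data known. All 10 members and the other measured family genes are named whatever their result. Of each other list up to 4 genes past the threshold per comparison are named, as are C1galt1, C1galt1c1, Gcnt1, St3gal1 and St6galnac4, and the 3 genes of most similar profile. Selplg was named after its values were seen, and 1 gene that the rule names is not reported here. The alternatives were quantile normalization, median centring, keeping only the 832 brightest probe sets, a fit of only the 2 groups compared, a replicate block, array weights, an intensity trend, and leaving out each array. Each member had 1 probe set, so averaging probe sets was void. Promoter windows were searched for 6 motifs on both strands.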

Additional observations from a re-analysis of the deposited data

Results flagged for a closer look

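Galnt10 was the 1 of the 10 transferases whose change from naive cells differed between the tolerized groups by a test of the difference itself. Its level in deletion minus that in anergy was 1.00 on the log2 scale, with a limma adjusted p of 0.0027, and each of the 3 deletion arrays lay above each of the 3 anergy arrays. Over all probe sets 3.37% were called in this comparison, and 16.6% had groups without overlap. Galnt11 and Galnt6 did not pass as reported, but passed in 3 of 17 and 1 of 17 other settings.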

How the results depend on the processing

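The 5 falls in deletion against naive were 4 to 5 over all settings and the 5 falls in anergy against naive stayed 5, with a sixth fall (Galnt1) without anergy replicate 2 and a rise in 5 settings (Galnt7 in 3, Galnt3 in 2). Calls over the whole array were 237 in deletion against naive, and 189 to 282 in the other settings. In anergy against naive they were 334, and 280 to 371 in the other settings. In deletion against anergy 1 transferase was called, 3 with array weights and 1 to 2 when arrays were left out in turn. No call of a transferase changed direction. Over all probe sets that comparison gave 42 calls (26 higher and 16 lower in deletion), 70 after quantile normalization (32 and 38), 26 after median centring (13 and 13), 21 in a fit of only the 2 groups compared, 75 with array weights and 20 to 44 with arrays left out (20 without deletion replicate 2, 27 without deletion replicate 3 and 28 without anergy replicate 2). With a replicate block it gave 55, and the block changed 1 call of a transferase, that of Galnt3 in anergy against naive (limma adjusted p = 0.025). The labels state no pairing by replicate number. A block fitted to only deletion and anergy, added after their deviations were seen to correlate, gave 27 calls, with Galnt10 among them (adjusted p = 0.015). The cause of these shifts was not tested. Signal over background limits the dimmest genes: Galnt3 is not among the 832 brightest probe sets, and a fall in it would be understated.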
